A study of Sus scrofa with 6 samples.

Results

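The intercalated disc joins cardiac muscle cells end to end, and 10 of its genes were examined in the ventricular myocardium of minipigs with pressure overload. They encode the gap junction proteins GJA1, GJA5 and GJC1, the adherens junction proteins CDH2 and CTNNA3, and the desmosome proteins DSG2, DSC2, PKP2, JUP and DSP. The genes were taken by name from a table of 13288 genes, and all 10 names were found in it. RNA was sequenced from 3 sham minipigs (sham replicates 1 to 3) and 3 minipigs with descending aortic constriction (DAC replicates 4 to 6). All were male Tibetan minipigs. Anaesthetics were given for surgery and penicillin after it, and no test agent or genetic change is described for either group. Sutures were tightened around the descending aorta of the DAC group, the sham group had the chest opened without constriction, and the hearts were collected 12 weeks after surgery. The sample labels give heart as the tissue and do not say which ventricle or wall was taken, and the age of the animals was not given in the sources used here. Each column of the table is 1 minipig.

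At the disc, connexins of neighbouring cells dock to form channels through which ions pass from cell to cell. N-cadherin, encoded by CDH2, binds the same protein on the next cell and is tied to actin by catenins. Desmosomal cadherins do the same for desmin filaments, through plakoglobin, plakophilin-2 and desmoplakin. In the mammalian heart the adherens and desmosomal parts are mixed in a composite junction. Variants in PKP2, DSP, DSG2, DSC2, JUP, CDH2 and CTNNA3 are known from arrhythmogenic cardiomyopathy.

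None of the 10 genes passed the test between the groups. The values are FPKM, the fragments mapped to a gene after scaling for transcript length and for all mapped fragments of the sample, and the comparison used limma's moderated test on log2(FPKM + 1). A gene was called at an unadjusted P under 0.05, the threshold of the study. By this rule 939 of 11029 genes tested were called (8.51%), 3.25% higher and 5.27% lower in DAC, and 0 of the 10 disc genes were called, all of which passed the minimum of 1 FPKM in 3 samples. The smallest unadjusted P among the 10 was 0.242, and their adjusted P from limma with Benjamini-Hochberg adjustment was between 0.731 and 0.998. Over all genes tested, 0 had an adjusted P under 0.05. In each of the 10 genes the values of the DAC and sham minipigs overlapped, and the groups did not overlap in 14.9% of the genes tested. With only 10 genes, 0 without overlap is near that share and is not read as a result about them. The median log2 fold change (DAC minus sham) was -0.0018 over the 10 genes and -0.016 over all genes tested. The median size of the log2 fold change, regardless of sign, was 0.048 and 0.13, respectively. The 10 genes were not compared with genes of like level, and 4 of them were above the percentile of 97 in mean level. For 5 genes the DAC mean was the higher, and for the other 5 the sham mean. Every 95% interval of the log2 fold change included 0 and lay within 1 on either side of it. These are RNA levels of whole tissue, in which fewer cells of a type and less RNA per cell cannot be told apart.

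**Figure D1:**
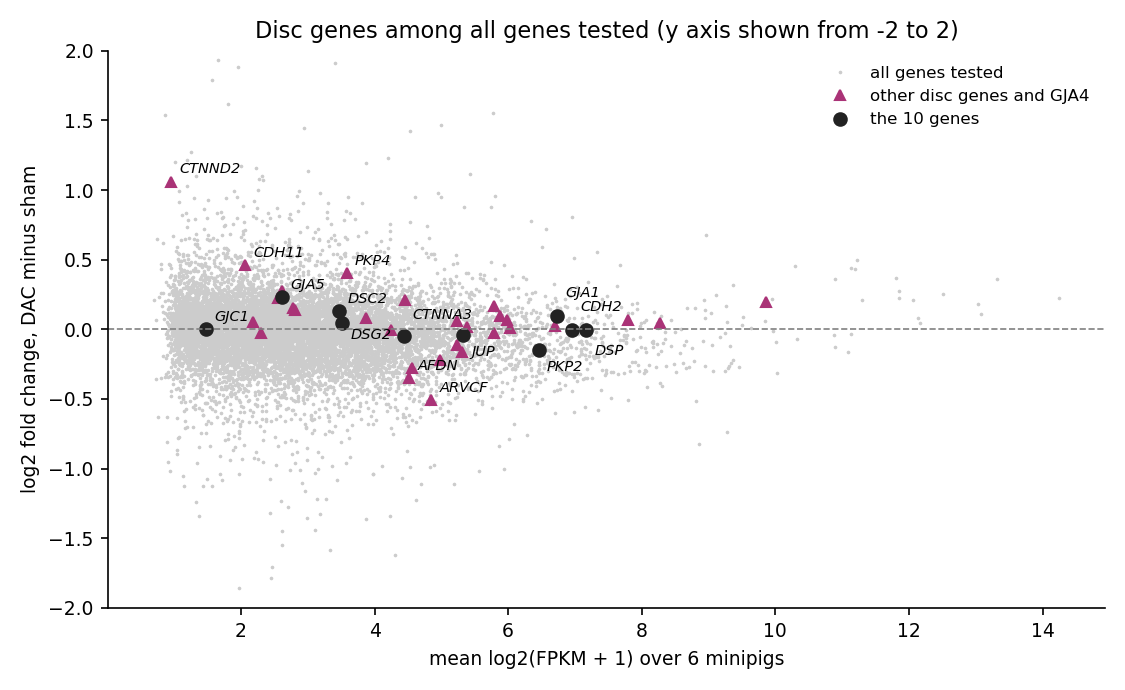
Log2 fold change (DAC minus sham) against mean log2(FPKM + 1) over the 6 minipigs for each gene tested; grey dots are all genes, black circles the 10 disc genes, and purple triangles the other disc genes and GJA4. The 10 genes lie between -0.15 and 0.23 on the vertical axis, while CTNND2 stands at 1.06 (2.24 with a pseudocount of 0.1) and ARVCF at -0.51; 4 genes lie beyond the axis limits.

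The levels of the 10 genes spanned from 143 FPKM for DSP to 1.79 FPKM for GJC1, as means of all 6 samples. FPKM is scaled per length, which allows a rough comparison of level between genes. This order has the limit that the treatment of fragments shared between genes was not given. DSP, CDH2 (123 FPKM), GJA1 (105 FPKM) and PKP2 (87.3 FPKM) were each above the percentile of 97 in mean level among the genes of the table. Neighbours in this order overlapped in range, but CDH2 was above GJA1 and GJA1 above PKP2 in 6 of 6 samples, and DSP was above CDH2 in 5. JUP (39.2 FPKM) and CTNNA3 (20.9 FPKM) followed, each apart from its neighbours in all samples. The desmosomal cadherins DSG2 (10.6 FPKM) and DSC2 (10.2 FPKM) could not be ordered, since DSG2 was the higher in only 2 of 6 samples. GJA5 (5.24 FPKM) and GJC1 (1.79 FPKM) were the lowest.

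**Figure D2:**
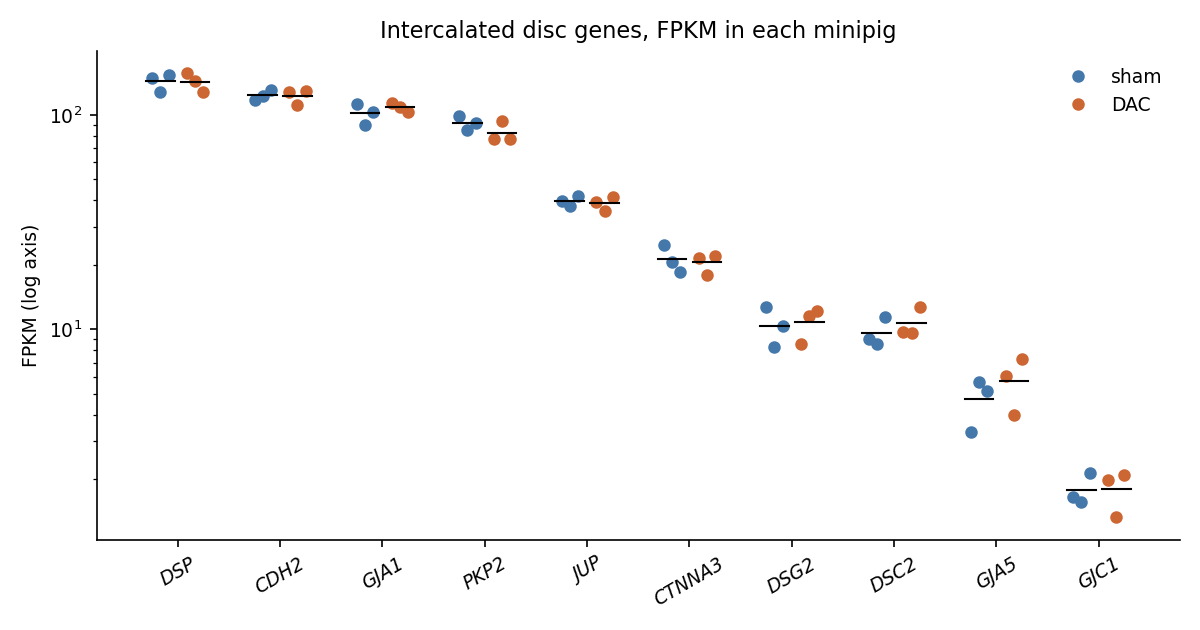
FPKM of each disc gene in each minipig, on a log axis; blue points are sham minipigs, orange points DAC minipigs, and black lines the group means. The sham and DAC points overlap for each of the 10 genes, from DSP near 143 FPKM to GJC1 near 1.79 FPKM.

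GJA1 (ENSSSCG00000004241, chromosome 1 from 40988515 to 41002137 of susScr11, minus strand) encodes connexin 43, the main channel protein of the working ventricle. It was at 112, 90.1 and 103 FPKM in sham replicates 1, 2 and 3, and at 114, 109 and 104 FPKM in DAC replicates 4, 5 and 6. Sham replicate 2 was the lowest, and the highest DAC value exceeded the highest sham value by little. The mean was 102 ± 11.03 FPKM in sham and 109 ± 5.21 FPKM in DAC minipigs (mean ± SD, n = 3 each). By limma, the log2 fold change of GJA1 was 0.10 with a standard error of 0.12 (95% interval from -0.17 to 0.37, adjusted P = 0.827). On the scale of FPKM + 1, this interval corresponds to a difference between -11.3% and 29.1% from sham.

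GJA5 (ENSSSCG00000006696, chromosome 4 from 99854392 to 99871288, plus strand) encodes connexin 40, which is known from atrial muscle, the conduction system and the endothelium of arteries. Its values were 3.33, 5.67 and 5.18 FPKM in sham replicates 1, 2 and 3, and 6.03, 3.98 and 7.24 FPKM in DAC replicates 4, 5 and 6. Sham replicate 1 and DAC replicate 5 were the low samples of their groups. GJA5 had the highest log2 fold change of the 10 genes, 0.23, and the widest interval (from -0.32 to 0.78, adjusted P = 0.791 by limma). Its coefficient of variation was 26.0% in the sham group and 28.7% in the DAC group, the highest of the 10 genes in both. Without DAC replicate 5 the log2 fold change was 0.44, and without sham replicate 1 it was 0.042, and in neither case was GJA5 called.

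Marker genes of the other cells in which connexin 40 is known were listed beside GJA5. The 6 arterial endothelial genes HEY1, SOX17, EFNB2, DLL4, SEMA3G and GJA4 summed to 36.5, 54.6 and 47.3 FPKM in sham replicates 1, 2 and 3, and to 50.6, 32.9 and 54.9 FPKM in DAC replicates 4, 5 and 6. The lowest sums were thus in sham replicate 1 and DAC replicate 5, the same samples as for GJA5. Not each arterial gene followed: in the sham group SOX17 was highest in replicate 1 (4.98 FPKM), and EFNB2 was lowest in replicate 3 (9.35 FPKM). The match was not particular to the arterial list. A list of 8 general endothelial genes was also lowest in sham replicate 1 (144 FPKM) and DAC replicate 5 (128 FPKM). Among those 8, KDR was called higher and VWF lower in the DAC group. Of 6 atrial genes, the 3 analysed here (MYL4, SLN and NR2F1) summed to between 1.79 and 5.19 FPKM in the sham group, and to 11.6, 2.42 and 27.7 FPKM in DAC replicates 4, 5 and 6. MYL4, an atrial light chain of myosin, was at 9.22 and 17.6 FPKM in DAC replicates 4 and 6 and between 0.780 and 3.79 FPKM in the other 4 samples. Of 7 conduction system genes, TBX3 and IRX3 were analysed, and they summed to between 26.5 and 39.3 FPKM in the sham group and to 49.1, 28.5 and 48.9 FPKM in DAC replicates 4, 5 and 6. None of the atrial, arterial or conduction genes tested was called. The part of these cells in the level of GJA5 was not tested.

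**Figure D3:**
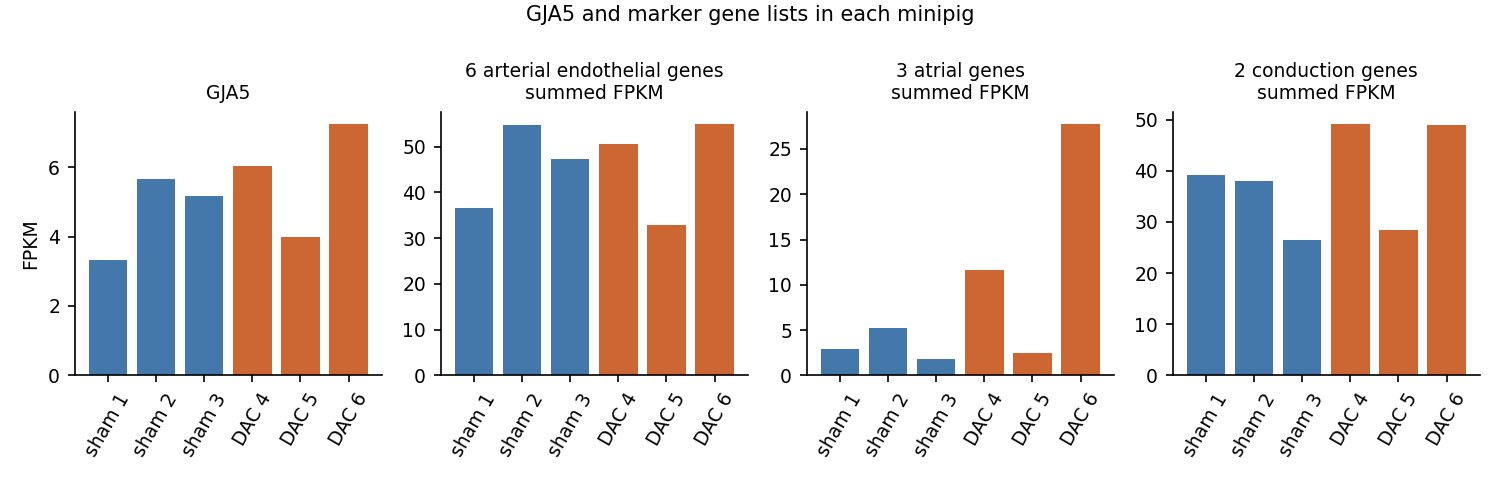
FPKM of GJA5 and summed FPKM of 3 marker lists in each minipig; blue bars are sham and orange bars DAC minipigs, and each bar starts at 0. GJA5 and the arterial genes are lowest in sham replicate 1 and DAC replicate 5, and the atrial genes are highest in DAC replicates 4 and 6 (11.6 and 27.7 FPKM).

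GJC1 (ENSSSCG00000021306, chromosome 12 from 18526068 to 18560220, plus strand) encodes connexin 45, a channel protein of conduction cells. It was at 1.66, 1.56 and 2.13 FPKM in the sham replicates and at 1.98, 1.33 and 2.09 FPKM in the DAC replicates, in the same order as above. For GJC1 the log2 fold change was 0.0021 (95% interval from -0.36 to 0.36). GJA1 made up 93.9% ± 1.64 (SD, n = 3) of the summed FPKM of the 3 connexins in the sham group and 93.5% ± 1.80 (SD, n = 3) in the DAC group. The share of GJA5 was 4.45% ± 1.5 and 4.95% ± 1.46 (mean ± SD, n = 3 each), respectively, and that of GJC1 was 1.65% ± 0.256 and 1.55% ± 0.348 (mean ± SD, n = 3 each). A total of 7 such measures of composition were compared by exact two-sided permutation tests, for which 3 against 3 samples allow no P under 0.10. The exact P was 0.8 for the share of GJA1, 0.7 for GJA5 and 0.7 for GJC1, and each adjusted P over the 7 measures was 0.9. Of a list of 21 other connexins and pannexins, GJA4 (connexin 37 of the endothelium) was the only gene analysed here. Its mean was 5.86 ± 1.79 FPKM in sham and 6.46 ± 1.40 FPKM in DAC minipigs (mean ± SD, n = 3 each), and it was not called.

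The means of both adherens junction genes differed between the groups by less than their spread between minipigs. CDH2 (ENSSSCG00000003722, chromosome 6 from 112396721 to 112628432, minus strand) encodes N-cadherin, the classical cadherin of heart muscle. Its values were 117, 122 and 130.1 FPKM in sham replicates 1, 2 and 3, and 127, 112 and 129.5 FPKM in DAC replicates 4, 5 and 6. DAC replicate 5 was the lowest sample, and the other DAC values lay inside the sham range. The mean was 123 ± 6.44 FPKM in sham and 123 ± 9.80 FPKM in DAC minipigs (mean ± SD, n = 3 each). A log2 fold change of -0.0057 was obtained for CDH2 (95% interval from -0.26 to 0.24, adjusted P = 0.99 by limma).

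CTNNA3 (ENSSSCG00000036480, chromosome 14 from 69200215 to 70938204, minus strand) encodes alpha-T-catenin, a form of alpha-catenin found in heart muscle that also binds plakophilin-2. It was at 24.7, 20.6 and 18.6 FPKM in sham replicates 1, 2 and 3, and at 21.6, 17.9 and 22.0 FPKM in DAC replicates 4, 5 and 6. Sham replicate 1 was the highest and DAC replicate 5 the lowest sample. This gave a log2 fold change of -0.048 (95% interval from -0.38 to 0.29). The RefSeq gene LRRTM3 lies within this locus, and it was not analysed separately here. CTNNA1, the alpha-catenin that most tissues use, was at 40.6 ± 2.87 FPKM and 41.1 ± 2.84 FPKM (mean ± SD, n = 3 each) in the sham and DAC groups. CTNNA3 thus made up 34.4% ± 4.66 (SD, n = 3) of the FPKM of both alpha-catenins in the sham group and 33.2% ± 2.58 (SD, n = 3) in the DAC group (exact permutation P = 0.8).

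The desmosomal cadherins were the least abundant desmosome genes, and both varied more between minipigs than the other desmosome genes. DSG2 (ENSSSCG00000022739, chromosome 6 from 115400252 to 115452473, plus strand) encodes desmoglein-2. It was at 12.7, 8.24 and 10.4 FPKM in sham replicates 1, 2 and 3, and at 8.57, 11.5 and 12.2 FPKM in DAC replicates 4, 5 and 6. DSG2 had a log2 fold change of 0.047 (95% interval from -0.39 to 0.48, adjusted P = 0.956 by limma). Low and high samples were thus found in both groups.

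DSC2 (ENSSSCG00000024800, chromosome 6 from 114916763 to 115021305, minus strand) encodes desmocollin-2, the partner of desmoglein-2. Its values were 8.98, 8.58 and 11.4 FPKM in sham replicates 1, 2 and 3, and 9.68, 9.63 and 12.7 FPKM in DAC replicates 4, 5 and 6. Sham replicate 3 and DAC replicate 6 were the high samples, and the log2 fold change was 0.13 (95% interval from -0.23 to 0.49). The locus that the table gives for DSC2 also spans the RefSeq gene DSC3 (114916759 to 114963688 of Sscrofa11.1), while RefSeq places DSC2 itself from 114982259 to 115021332. Fragments of both desmocollins could therefore enter this value, and DSC3 was not analysed separately here. With that limit, DSG2 made up 51.7% ± 5.94 (SD, n = 3) of the FPKM of DSG2 and DSC2 in the sham group and 50.1% ± 3.84 (SD, n = 3) in the DAC group (exact permutation P = 0.7).

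PKP2 (ENSSSCG00000000528, chromosome 5 from 41424845 to 41508868, plus strand) had the smallest P of the 10 genes. Its protein, plakophilin-2, is the main plakophilin of heart muscle and lies on the inner side of the junction. It was at 98.4, 85.0 and 92.1 FPKM in sham replicates 1, 2 and 3, and at 77.4, 93.4 and 77.4 FPKM in DAC replicates 4, 5 and 6. DAC replicates 4 and 6 lay below all sham minipigs, and DAC replicate 5 was above 2 of them. The mean was 91.8 ± 6.73 FPKM in sham and 82.7 ± 9.24 FPKM in DAC minipigs (mean ± SD, n = 3 each), a difference of -9.93% of the sham mean. On the log2 scale the difference was -0.15 with a standard error of 0.12 (95% interval from -0.43 to 0.13, unadjusted P = 0.242 and adjusted P = 0.731 by limma). Without DAC replicate 5 it was -0.24, with an unadjusted P of 0.074 from limma.

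JUP (ENSSSCG00000017428, chromosome 12 from 20901396 to 20931211, plus strand) encodes plakoglobin, which binds both classical and desmosomal cadherins. It was at 39.6, 37.6 and 41.9 FPKM in sham replicates 1, 2 and 3, and at 39.1, 35.7 and 41.2 FPKM in DAC replicates 4, 5 and 6. Its residual standard deviation between minipigs, 0.090 on the log2 scale, was the smallest of the 10 genes and at the percentile of 12.5 among all genes tested. Both groups spanned nearly the same range, with a log2 fold change of -0.039 (95% interval from -0.28 to 0.21). Beta-catenin (CTNNB1), the related protein that also carries Wnt signals, was at 25.5 ± 5.51 FPKM and 20.7 ± 3.54 FPKM (mean ± SD, n = 3 each) in the sham and DAC groups, and it was not called; its locus overlaps that of ULK4. JUP made up 61.2% ± 4.13 (SD, n = 3) of the FPKM of both genes in the sham group and 65.2% ± 3.29 (SD, n = 3) in the DAC group. This difference of 4.03 percentage points was within the overlap of the groups (exact permutation P = 0.3, adjusted P = 0.9).

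DSP (ENSSSCG00000001025, chromosome 7 from 4862649 to 4915615, plus strand) encodes desmoplakin, which anchors desmin filaments to the junction. It was at 149, 127 and 154 FPKM in sham replicates 1, 2 and 3, and at 157, 144 and 128 FPKM in DAC replicates 4, 5 and 6. Sham replicate 2 was the lowest and DAC replicate 4 the highest sample. The sham and DAC means were 143 ± 14.1 FPKM and 143 ± 14.3 FPKM (mean ± SD, n = 3 each), and the log2 fold change was -0.0061 (95% interval from -0.30 to 0.29). The summed FPKM of the 5 desmosome genes over that of CDH2 and CTNNA3 was 2.04 ± 0.156 in sham and 2.01 ± 0.242 in DAC minipigs (mean ± SD, n = 3 each, exact permutation P = 0.9).

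**Figure D4:**
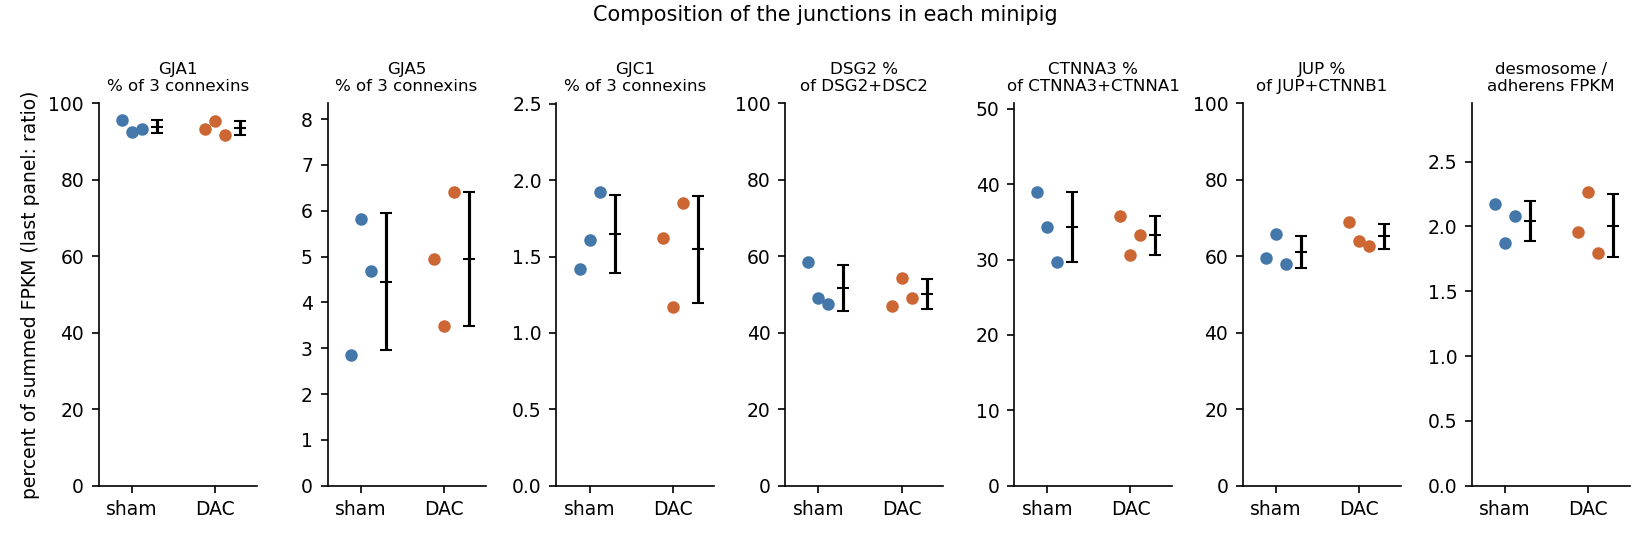
Composition of the junctions in each minipig, as percent of summed FPKM (the last panel is a ratio of summed FPKM, and the vertical scales differ between panels); points are minipigs, and black bars the mean and SD of each group. The groups overlap in all 7 measures although the mean share of JUP is 61.2% in sham and 65.2% in DAC minipigs.

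Single minipigs stood low or high for several of the 10 genes. Sham replicate 2 was the lowest sample for GJA1, DSG2, DSC2 and DSP, and it was below the mean of all samples in 9 of the 10 genes. DAC replicate 5 was the lowest for GJC1, CDH2, CTNNA3 and JUP. The highest values came from sham replicates 1 and 3 in 3 genes each and from DAC replicates 4 and 6 in 2 genes each. In DAC replicate 5 the mitochondrially encoded genes took 32.8% of the summed FPKM, against 27.2% and 27.1% in DAC replicates 4 and 6 and 24.0% to 25.3% in the sham group, so that all DAC minipigs were above all sham minipigs. A larger share of these genes can lower the FPKM of others, since FPKM is scaled for all mapped fragments. The summed FPKM, which includes the mitochondrially encoded genes, was between 281377 in sham replicate 1 and 308771 in DAC replicate 5. The part of this share in the low values of DAC replicate 5 was not tested. With the mitochondrially encoded genes left out of the scaling, 0 of the 10 genes were called by limma, and GJA1 had a log2 fold change of 0.14 and PKP2 of -0.11.

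Among 39 other genes of adherens junctions, desmosomes and the disc, 28 were analysed, and all 28 passed the minimum. Of these, 3 were called higher and 2 lower in the DAC group, which is 17.9% against 8.51% of all genes tested, and none had an adjusted P under 0.05 from limma. The count includes CTNND2, which met the minimum of 1 FPKM in the DAC samples only, so that the share is not read as a result about the list. Their median log2 fold change was 0.057, against -0.016 over all genes tested. The 5 called genes were CTNND2, PKP4 and CDH11, which rose, and ARVCF and AFDN, which fell. Regardless of the calls, the groups did not overlap in 5 of the 28 genes, against 14.9% of all genes tested, and this is not read as a result about the list. Leaving out sham replicate 1, sham replicate 3 or DAC replicate 4 left 3 called genes, leaving out DAC replicate 5 left 2, and leaving out DAC replicate 6 gave 7.

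PKP4 (ENSSSCG00000015878, chromosome 15 from 65430309 to 65680889), a relative of p120-catenin found at cell junctions, was at 10.04, 10.2 and 8.14 FPKM in sham replicates 1, 2 and 3, and at 14.2, 11.96 and 12.3 FPKM in DAC replicates 4, 5 and 6. All DAC minipigs were above all sham minipigs. By limma, PKP4 had a log2 fold change of 0.41 (95% interval from 0.11 to 0.70, adjusted P = 0.516), and it was no longer called without sham replicate 3 (log2 fold change 0.31). ARVCF (ENSSSCG00000010133, chromosome 14 from 51403923 to 51440059), of the same family, was at 41.1, 29.5 and 30.3 FPKM in the sham replicates and at 26.3, 19.8 and 23.6 FPKM in the DAC replicates. Here all DAC minipigs were below all sham minipigs, and by limma the log2 fold change was -0.51 with a standard error of 0.17 (adjusted P = 0.522). ARVCF was not called without sham replicate 1 (-0.36) or without DAC replicate 5 (-0.40), and part of its locus is shared with another gene, so that fragments in that stretch are uncertain. CTNND2 (ENSSSCG00000016780, chromosome 16 from 508634 to 1521611), delta-catenin, was at 0.809, 0.129 and 0.195 FPKM in the sham replicates and at 1.63, 1.17 and 2.88 FPKM in the DAC replicates. Its log2 fold change of 1.06 had a standard error of 0.27 (adjusted P = 0.482 by limma) and rests on low values, and with a pseudocount of 0.1 it was 2.24. All sham values of CTNND2 were under the minimum of 1 FPKM and all DAC values above it, so that the gene entered the test through the group in which it was high, and its call is given as a description.

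AFDN (ENSSSCG00000004018, chromosome 1 from 1569655 to 1698776), which links nectins to actin, was at 23.9, 26.3 and 24.5 FPKM in the sham replicates and at 19.4, 16.3 and 22.7 FPKM in the DAC replicates. All DAC values were below all sham values, and by limma the log2 fold change was -0.35 with a standard error of 0.14 (adjusted P = 0.579). AFDN was called without DAC replicate 6 (-0.47), but not without any other single sample, when the log2 fold change was between -0.38 and -0.24. CDH11 (ENSSSCG00000002795, chromosome 6 from 25783595 to 25933634), a cadherin known from fibroblasts, was at 2.60 ± 0.735 FPKM in sham and 3.92 ± 0.488 FPKM in DAC minipigs (mean ± SD, n = 3 each). CDH11 had a log2 fold change of 0.46 by limma (95% interval from 0.071 to 0.85, adjusted P = 0.553), which was between 0.37 and 0.43, and not called, without sham replicate 2, sham replicate 3, DAC replicate 4 or DAC replicate 5. The summed FPKM of 7 fibroblast markers was between 479 and 553 in the sham group and between 683 and 776 in the DAC group. Of the 7, LUM, COL1A1, COL1A2 and COL3A1 were called higher, whereas TCF21 (log2 fold change -0.022), DCN (-0.012) and PDGFRA (0.24) were not called. The part of fibroblasts in the level of CDH11 was not tested.

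**Figure D5:**
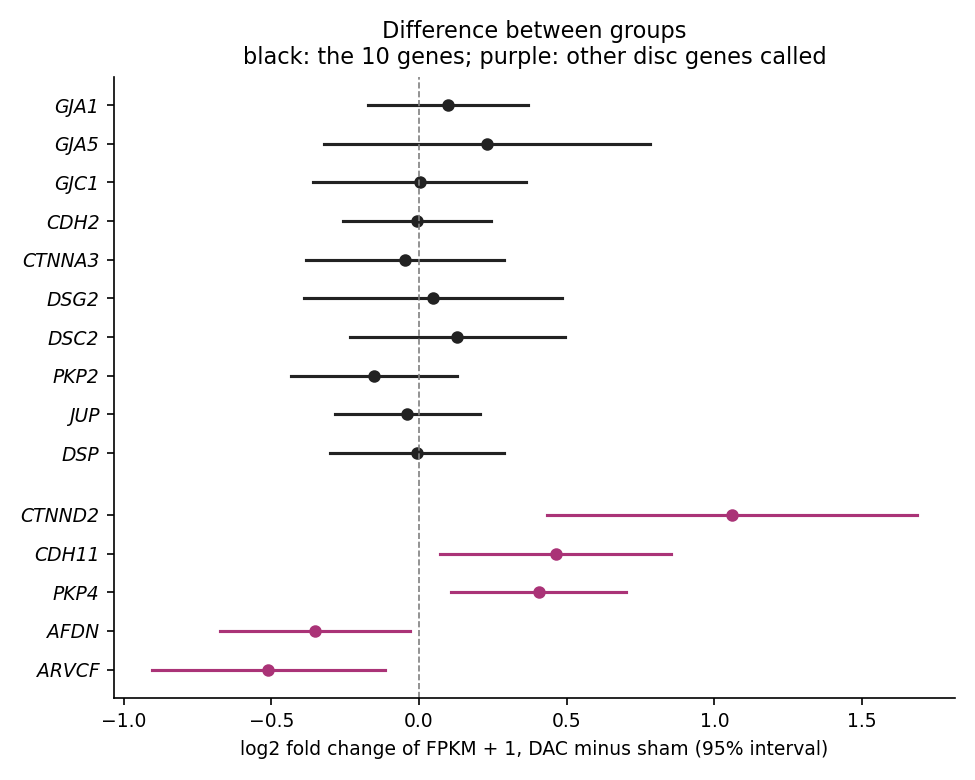
Log2 fold change (DAC minus sham) of FPKM + 1 with its 95% interval from limma; black marks are the 10 disc genes and purple marks the 5 other disc genes that were called. All 10 black intervals cross 0, and the widest, of GJA5, reaches from -0.32 to 0.78.

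Of the known partners of the members, TJP1, VCL and DES were not called. TJP1 (ZO-1), which binds the tail of connexin 43, was at 38.2 ± 0.661 FPKM in sham and 35.6 ± 5.17 FPKM in DAC minipigs (mean ± SD, n = 3 each). VCL (vinculin), an actin linker whose locus overlaps AP3M1, was at 35.8 ± 0.618 and 37.5 ± 2.90 FPKM (SD, n = 3 each). DES, the desmin to which desmoplakin binds, was at 867, 885 and 855 FPKM in the sham replicates and at 1002, 1188 and 834 FPKM in the DAC replicates, so that DAC replicate 6 was the lowest of all samples. The log2 fold changes of these 3 genes were -0.11, 0.062 and 0.20, respectively.

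The tissue label was checked against marker genes. The 9 cardiomyocyte markers analysed summed to between 14687 and 15375 FPKM in the sham group and between 13851 and 16879 FPKM in the DAC group. Among them only RYR2 was called, and it fell by 0.41 on the log2 scale. MYL2, the ventricular light chain of myosin, was at 4149 FPKM or more in each sample. The 3 genes of mesothelium and epithelium, of which WT1 held most, summed to between 6.03 and 11.7 FPKM in the sham group and between 2.61 and 5.48 FPKM in the DAC group. WT1 was called lower in the DAC group (log2 fold change -1.23, adjusted P = 0.482 by limma). The others, KRT8 and CDH1, did not reach the minimum and were not tested.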

How the data were processed

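RNA was extracted from the ventricular tissue of 3 sham and 3 DAC minipigs, and paired-end reads of NEBNext Ultra libraries came from an Illumina HiSeq. The authors deposited FPKM per gene, with 1 column for each minipig, and the highest sample of each gene has at least 0.500 FPKM. The submitters' processing notes name HISAT2 and susScr11. The program that made the FPKM, its treatment of shared fragments and its use of strand were not given in the sources used here. No steps of whole reads were seen (the most frequent ratio between a pair of samples was shared by at most 6 genes), so the depth is unknown, and the spread between minipigs is the measure of precision. Pearson's r between samples across the genes tested was between 0.964 and 0.977, with the genes not independent.

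Genes that reached 1 FPKM in 3 or more samples were compared on log2(FPKM + 1) with limma 3.58.1 (R 4.3.3), letting the prior variance follow the mean level. Fold changes on this scale understate those of low genes. Composition was compared by exact permutation tests (scipy 1.17.1). No covariate or batch is named in the labels. The steps were tested on simulated data of 11029 genes, in which 192 of 200 genes with a log2 change of 1 were called. That change is larger than any among the members (at most 0.23), so the recovery does not measure the power for differences of their size. RefSeq positions of Sscrofa11.1 were used for overlaps, and all 10 members matched. The 10 members and the other lists were chosen with earlier results of these data known. The text names all members, up to 5 called genes of each list in each direction (with none called, the gene of smallest P), and 5 partners (CTNNA1, CTNNB1, TJP1, VCL and DES), and 1 further partner is not reported here. Alternatives covered the filter, the scaling, the pseudocount, the variance, sample weights and each sample left out.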

Additional observations from a re-analysis of the deposited data

How the results depend on the processing

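None of the 10 members was called under any of the 15 alternatives, and the lowest unadjusted P from limma was 0.074, for PKP2 without DAC replicate 5. GJA1, GJA5 and DSC2 had a higher and PKP2 a lower mean in the DAC group under all 15, but the sizes varied: GJA1 was at 0.013 without sham replicate 2, GJA5 at 0.042 without sham replicate 1, DSC2 at 0.0090 without DAC replicate 6 and PKP2 at -0.046 after quantile normalization. The fold changes near 0 changed sign: after median scaling to 0.019 for CDH2 and 0.019 for DSP, after quantile normalization to -0.0053 for GJC1, 0.085 for CDH2, 0.011 for CTNNA3, 0.017 for JUP and 0.094 for DSP, without mitochondrially encoded genes to 0.038 for CDH2, 0.0044 for JUP and 0.038 for DSP, after centring on cardiomyocyte markers to 0.025 for CDH2 and 0.025 for DSP, with a pseudocount of 0.1 to -0.0017 for GJC1, and with sample weights to 0.0025 for CDH2. With 1 sample left out in turn, the log2 fold change was between -0.045 and 0.061 for CDH2, -0.14 and 0.060 for CTNNA3, -0.096 and 0.19 for DSG2, -0.089 and 0.069 for DSP, -0.075 and 0.13 for GJC1, and -0.085 and 0.016 for JUP. The cause of these changes was not tested.

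The number of other disc genes called was 3 with a minimum of 5 FPKM, which tests fewer genes, 3 with the variance of each gene on its own, and between 2 and 7 with 1 sample left out. Over all genes, 579 were called with a minimum of 5 FPKM, 165 of them higher in the DAC group. With 1 sample left out, between 600 and 1029 genes were called, 241 to 470 of them higher and 359 to 674 lower, and 0 to 1 had an adjusted P under 0.05. The lowest counts were 600 in all and 359 lower without sham replicate 1, followed by 387 lower without sham replicate 3. The lower genes were 61.9% of those called, 71.5% with a minimum of 5 FPKM, 52.8% after median scaling, 52.9% after quantile normalization, 49.0% after centring on cardiomyocyte markers, 44.9% without mitochondrially encoded genes and 50.8% without DAC replicate 5. GJC1 did not reach a minimum of 5 FPKM. No paired analysis was possible because the groups share no replicate numbers. With 3 minipigs in each group, the 95% intervals of the members give the differences that the data leave possible.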

Other observations

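From the p120-catenin family, the 4 genes CTNND1, ARVCF, PKP4 and CTNND2 were grouped after their values were seen, so that no test is given. PKP2 was not part of this group, and the shares below are of these 4 genes only. The summed FPKM of the 4 genes was 56.8 ± 7.44 (SD, n = 3) in the sham group and 52.1 ± 6.70 (SD, n = 3) in the DAC group, and the groups overlapped. ARVCF made up 63.0%, 55.5% and 58.6% of this sum in sham replicates 1, 2 and 3, and 45.7%, 44.2% and 43.6% in DAC replicates 4, 5 and 6. PKP4 made up 15.4%, 19.1% and 15.7% in the sham replicates, and 24.7%, 26.8% and 22.7% in the DAC replicates. CTNND1, p120-catenin itself, held 23.7% ± 2.82 (SD, n = 3) and 27.2% ± 1.08 (SD, n = 3), respectively. The shares depend on each other, since they add up to the whole, and ARVCF and PKP4 were called in the comparison above.

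VEZT, which encodes vezatin of the adherens junction, was singled out after its values were seen, as the other disc gene whose groups did not overlap although it was not called. Such a lack of overlap was found in 5 of the 28 other disc genes and in 14.9% of all genes tested, and it is not read as a result about VEZT. VEZT was at 4.19, 4.57 and 4.49 FPKM in the sham replicates and at 4.85, 5.23 and 5.90 FPKM in the DAC replicates (log2 fold change 0.22, unadjusted P = 0.078 from limma), and its locus overlaps that of FGD6.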
